A study of Mus musculus with 2 samples.

Results

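The colony-stimulating factor axis was followed through 8 listed genes: the ligands Csf1, Il34 and Csf2, and the receptors Csf1r, Csf2ra, Csf2rb, Flt3 and Cx3cr1. All 8 were among the 31053 features counted in both libraries. The data are single-cell counts of RNA from cells sorted for CD45, the pan-leukocyte surface protein, from mouse hearts; the animals were wild-type C57BL/6, 10 weeks old. One group had a sham operation, in which the aorta is not narrowed, and the other transverse aortic constriction (TAC), an operation that narrows the aorta so that the left ventricle pumps against a higher pressure. Each group was 1 library of cells pooled from 6 mice, and no animal could be told apart within a pool. No difference between the groups could therefore be tested over animals. Values are UMIs (unique molecular identifiers, which count captured RNA molecules) added up over a class and divided by that class's total UMIs, on the usual CPM scale. The intervals, all at 95%, cover counting error only.

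CSF1 and IL-34 are secreted ligands that share the receptor tyrosine kinase CSF1R, on which most tissue macrophages and many monocytes depend for survival and proliferation. CSF2 (GM-CSF) signals through its own alpha chain, CSF2RA, paired with the common beta chain CSF2RB, which the receptors for IL-3 and IL-5 also use, and it acts on neutrophils, monocytes and dendritic cells. FLT3, a kinase related to CSF1R, supports dendritic cells and their progenitors. CX3CR1 is no colony-stimulating factor receptor: it is the receptor of fractalkine (CX3CL1) and is used as a marker of monocytes and of some resident macrophages. In the heart, fibroblasts and vessel cells are known sources of CSF1, and resident macrophages carry CSF1R.

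Promoter windows of 5 members (Csf1, Csf2, Csf2ra, Cx3cr1 and Flt3) were searched, each from 250 bases before to 50 bases after the RefSeq start on GRCm38.p6. The windows of 3 are shown because the levels of these genes fill much of the results: the ligand Csf1 at chr3:107760420-107760719, the GM-CSF receptor chain Csf2ra at chr19:61228369-61228668 and Cx3cr1 at chr9:120068247-120068546, all on the minus strand and written 5′ to 3′. Capitals mark the matched motifs.
Csf1: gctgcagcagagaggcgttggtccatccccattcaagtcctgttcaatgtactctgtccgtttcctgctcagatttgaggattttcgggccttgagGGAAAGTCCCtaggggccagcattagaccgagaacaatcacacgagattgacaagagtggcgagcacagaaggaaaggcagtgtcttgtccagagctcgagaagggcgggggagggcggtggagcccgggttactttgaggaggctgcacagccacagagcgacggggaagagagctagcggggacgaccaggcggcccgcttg
Csf2ra: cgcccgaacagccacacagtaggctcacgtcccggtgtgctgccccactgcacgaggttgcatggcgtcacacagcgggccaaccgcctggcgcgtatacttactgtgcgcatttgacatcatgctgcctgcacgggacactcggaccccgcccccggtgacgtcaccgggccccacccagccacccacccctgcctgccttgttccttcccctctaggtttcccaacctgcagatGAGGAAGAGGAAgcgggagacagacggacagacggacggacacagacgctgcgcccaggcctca
Cx3cr1: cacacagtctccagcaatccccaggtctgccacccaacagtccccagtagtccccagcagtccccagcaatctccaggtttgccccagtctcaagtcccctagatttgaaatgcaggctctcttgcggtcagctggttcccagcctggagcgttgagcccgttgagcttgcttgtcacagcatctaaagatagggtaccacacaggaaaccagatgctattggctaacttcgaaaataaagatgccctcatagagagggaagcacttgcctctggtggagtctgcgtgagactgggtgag
The Csf1 window holds 1 match to the NF-kB consensus, GGAAAGTCCC, which begins 154 bases before the start. That consensus, read on both strands, was in 0.411% of the 32851 promoter windows of the same length. The Csf2ra window holds 2 adjoining matches to GAGGAA that do not overlap. These letters are the core bound by ETS factors such as PU.1 and were in 28.3% of windows. Searches on both strands for the AP-1 motif TGANTCA, the STAT motif TTCNNNGAA and the interferon response element, present in 7.81%, 8.3% and 3.44% of windows, gave no match in the 5 windows. Cx3cr1, Csf2 and Flt3 held none of the 5 motifs. The Csf2 window, chr11:54249850-54250149, lies wholly before the annotated gene given below, which is on the minus strand and starts at 54249667. It does not cover the bases next to that start, so its lack of a match does not describe them. A match is a run of letters and not a measured binding site.

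The filter kept 34.9% of the sham and 70.2% of the TAC barcodes. Its limit of 10% mitochondrial UMIs was exceeded in 7590 of 11941 sham and 2246 of 7975 TAC barcodes. After filtering, 4169 sham and 5600 TAC cells remained, with a median of 9536 UMIs per cell in sham and 13892 in TAC. The mitochondrial share of UMIs had a median of 8.02% in sham and 4.42% in TAC. They formed 22 clusters, made without the 8 members and 13 related genes, and the libraries shared 35 barcode sequences, 7 of them among kept cells. Macrophage-like cells numbered 2782 in sham and 1731 in TAC, neutrophil-like cells 181 and 1180, T-like cells 152 and 297, fibroblast-like cells 212 and 248, and endothelial-like cells 112 and 408. These 5 classes held at least 100 cells in each library and are compared in full. Smaller classes were monocyte-like (71 and 386), B-like (165 and 59), NK-like (53 and 77), mural-like (4 and 24) and erythroid-like (22 and 26) cells and cluster 2, a dendritic-like group led by Cd209a, Mmp12 and Flrt3 (188 and 73). Fibroblast-, mural- and endothelial-like cells were present in spite of the CD45 sort, yet Ptprc, which encodes CD45, had a UMI in 18.4% and 16.9% of fibroblast-like and in 35.7% and 19.1% of endothelial-like cells, against 90.9% and 95.1% of macrophage-like cells. Their number here does not measure their number in the heart.

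RNA of macrophages was present well beyond the macrophage-like cells. The complement genes C1qa, C1qb and C1qc, which define cardiac macrophages, made up a median of 168 and 223 of every 10000 UMIs in sham and TAC macrophage-like cells. The sham medians were 132 in neutrophil-like, 111 in T-like, 128 in B-like and 111 in NK-like cells. In the TAC library they were 11.4, 114, 143 and 29.1. Fibroblast-like cells carried 1.07 and 2.0, and endothelial-like cells 2.46 and 3.4. Of the 20 listed macrophage markers, 18 were found in at least 50% of sham neutrophil-like barcodes and 6 in at least 50% of those from TAC, and the markers summed to 42963 and 23145 CPM. Receptor values in lymphoid and neutrophil-like barcodes are therefore given beside C1q, and also over barcodes with C1q under 10 per 10000 UMIs.

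Csf1 RNA was most abundant in neutrophil-like cells and in stromal cells of both libraries. Neutrophil-like cells carried 225 Csf1 UMIs in sham (104 CPM, 91.1 to 119) and 1454 in TAC (98.5 CPM, 93.5 to 104). Fibroblast-like cells had 172 UMIs in sham (81.1 CPM, 69.4 to 94.1) and 428 in TAC (98.9 CPM, 89.7 to 109). Mural-like cells, the smooth muscle and pericyte group, had 4 and 27 UMIs (80.7 and 71.3 CPM) in very few cells. In the sham library these levels overlapped, so the order of neutrophil-, fibroblast- and mural-like cells was not resolved. Endothelial-like cells stood below neutrophil- and fibroblast-like cells in sham at 34.7 CPM (24.7 to 47.5). Their interval overlapped that of mural-like cells (22.0 to 207). Every other class in that library was at or below the 22.3 CPM of NK-like cells.

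Csf1 was higher in the TAC library in macrophage-, endothelial-, T- and monocyte-like cells. In macrophage-like cells Csf1 was 4.64 CPM in sham (126 UMIs in 86 cells) and 12.2 CPM in TAC (347 UMIs in 240 cells), a TAC over sham ratio of 2.62 (2.13 to 3.24), or 1.39 on the log2 scale. That value depended on the cells taken: it was 0.11 when only cells with at least 500 genes were clustered, which gave 326 sham UMIs, and 0.24 as the mean over the 6 clusters. Among the clusters, the dividing cells of cluster 7 had 7 sham and 147 TAC UMIs (2.81 and 16.3 CPM, ratio 5.82, 2.76 to 14.7), and no other cluster's interval lay above 1. Over the 6 clusters and the unnamed C1q-rich cluster 18 described below, Csf1 was higher in TAC in 5 and lower in 2. Of these, 4 and 2 were past 1.5-fold, the lowest ratio was 0.225, and no interval lay under 1. In endothelial-like cells Csf1 was 34.7 CPM in sham and 69.5 CPM in TAC, a ratio of 2.0 (1.43 to 2.88), and 1.67 (1.1 to 2.62) over barcodes with little C1q. T-like cells had 14 and 99 UMIs, a ratio of 2.6 (1.48 to 4.92). Monocyte-like cells had 1 Csf1 UMI in 71 sham cells and 135 in 386 TAC cells, 61 of which carried the gene, with a ratio of 13.9 (2.46 to 554). Over barcodes with little C1q that ratio was 4.45 (0.765 to 179), whose interval includes 1. Of the 16 listed neutrophil markers, 0 were found in at least 50% of monocyte-like cells from sham and 3 in those from TAC, and they summed to 170 and 14995 CPM, against 37013 and 149721 CPM in neutrophil-like cells. In macrophage-like cells the same markers summed to 163 and 2178 CPM, in T-like cells to 1342 and 5033 CPM, and in endothelial-like cells to 3448 and 2826 CPM. Their part in the Csf1 values was not tested. Fibroblast-like cells differed little, with a ratio of 1.22 (1.02 to 1.46), and so did neutrophil-like cells, with 0.944 (0.82 to 1.09). Both depended on the processing: over 11 alternatives each, the log2 ratio ran from -0.36 to 0.93 in fibroblast-like and from -1.55 to 0.46 in neutrophil-like cells. At a common depth of 1000 UMIs per cell, Csf1 was seen in 9.95% (6.27 to 14.8) of fibroblast-like cells from sham and 7.69% (4.69 to 11.8) of those from TAC, and in 12.2% and 12.8% of neutrophil-like cells. Without thinning those shares were 52.8% and 68.5%, and 42.5% and 43.0%. Macrophage-like cells were at 0.396% and 1.04% after thinning. Thinned fibroblast-like cells held 22 and 20 Csf1 UMIs, a log2 ratio of -0.36 against 0.28 without thinning.

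The neutrophil-like class was made of different clusters in the 2 libraries, and Csf1 differed among them. Cluster 10, with 155 of the 181 sham cells and a C1q median of 140, had 103 CPM in sham and 110 CPM in TAC. Cluster 6, with 643 TAC cells and a C1q median of 6.04, had the highest TAC level at 217 CPM (201 to 234). Cluster 5, with 386 TAC cells and a C1q median of 165, had 79.9 CPM. Cluster 21, whose leading genes Ngp, Camp, Ltf and Lcn2 encode granule proteins of immature neutrophils, had 34.8 CPM over 137 TAC cells. The TAC interval of cluster 6 lay above those of clusters 5 and 21, so the class mean joins unlike cells.

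A finer clustering divided the endothelial-like cells. Those led by Fabp4, Gpihbp1 and Rbp7 had 45.2 CPM of Csf1 in sham and 63.3 CPM in TAC, a ratio of 1.4 (0.929 to 2.19). Those led by Plvap, Clu and Vwf, 50 sham and 79 TAC cells, had 8 and 91 UMIs (15.2 and 82.8 CPM), a ratio of 5.44 (2.65 to 13). The same clustering separated monocytes led by Prtn3, Plac8 and Ly6c2, the classical type, from those led by Treml4 and Cd300e, the non-classical type. Csf1 was 1.62 and 11.7 CPM in the first. In the second it was 0 UMIs in 18 sham cells against 31.6 CPM in 133 TAC cells, a TAC level 2.27-fold a floor of 3 counts over the sham group.

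Il34, the second ligand of CSF1R, was nearly limited to fibroblast- and mural-like cells. Fibroblast-like cells held 2 Il34 UMIs in sham (0.943 CPM, in 2 of 212 cells) and 64 in TAC (14.8 CPM, 11.4 to 18.9, in 41 of 248 cells), a ratio of 15.7 (4.17 to 132). Mural-like cells held 1 UMI in 4 sham cells and 17 UMIs in 11 of 24 TAC cells (44.9 CPM, 26.1 to 71.8). Outside these classes, 3 UMIs were counted in all named classes, 2 in 1 endothelial-like cell and 1 in a macrophage-like cell, both from TAC. Fibroblast-like cells of TAC with a UMI of Postn or Cthrc1, genes of activated fibroblasts, carried 18.4 CPM of Il34 (14 to 23.7, 157 cells) against 4.46 CPM (1.45 to 10.4, 91 cells) in those without. In sham, 22 fibroblast-like cells had a UMI of either gene and none of them had Il34. The 190 others held the 2 sham UMIs. At 1000 UMIs per cell, Il34 was seen in 3 of 247 TAC and 0 of 211 sham fibroblast-like cells, which allows a share of up to 1.42% (3 counts of the total), so the difference was not detectable at that depth.

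Csf2 was found in very few cells, and its class sums rest on single barcodes. NK-like cells held 3 UMIs in 3 of 53 sham cells and 38 UMIs in 8 of 77 TAC cells, 24 of them in 1 cell (3.52 and 21.0 CPM, ratio 5.97, 1.89 to 30.2). T-like cells held 3 UMIs in 1 sham cell and 16 UMIs in 4 TAC cells (1.21 and 2.37 CPM). The 8 TAC and 3 sham NK-like cells differed in C1q as well, with 5 of 8 under 3 per 10000 in TAC and all 3 above 100 in sham. Fibroblast-like cells had 0 Csf2 UMIs in sham and 25 in TAC. That TAC level was 4.08-fold the same floor, and the interval of the ratio began at 3.08, but all 25 came from 2 cells with 18 and 7 UMIs. The cell with 18 carried 84.6 per 10000 of C1q, the other 1.09. Macrophage-like cells had 1 and 7 UMIs, each in 1 cell.

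**Figure D1:**
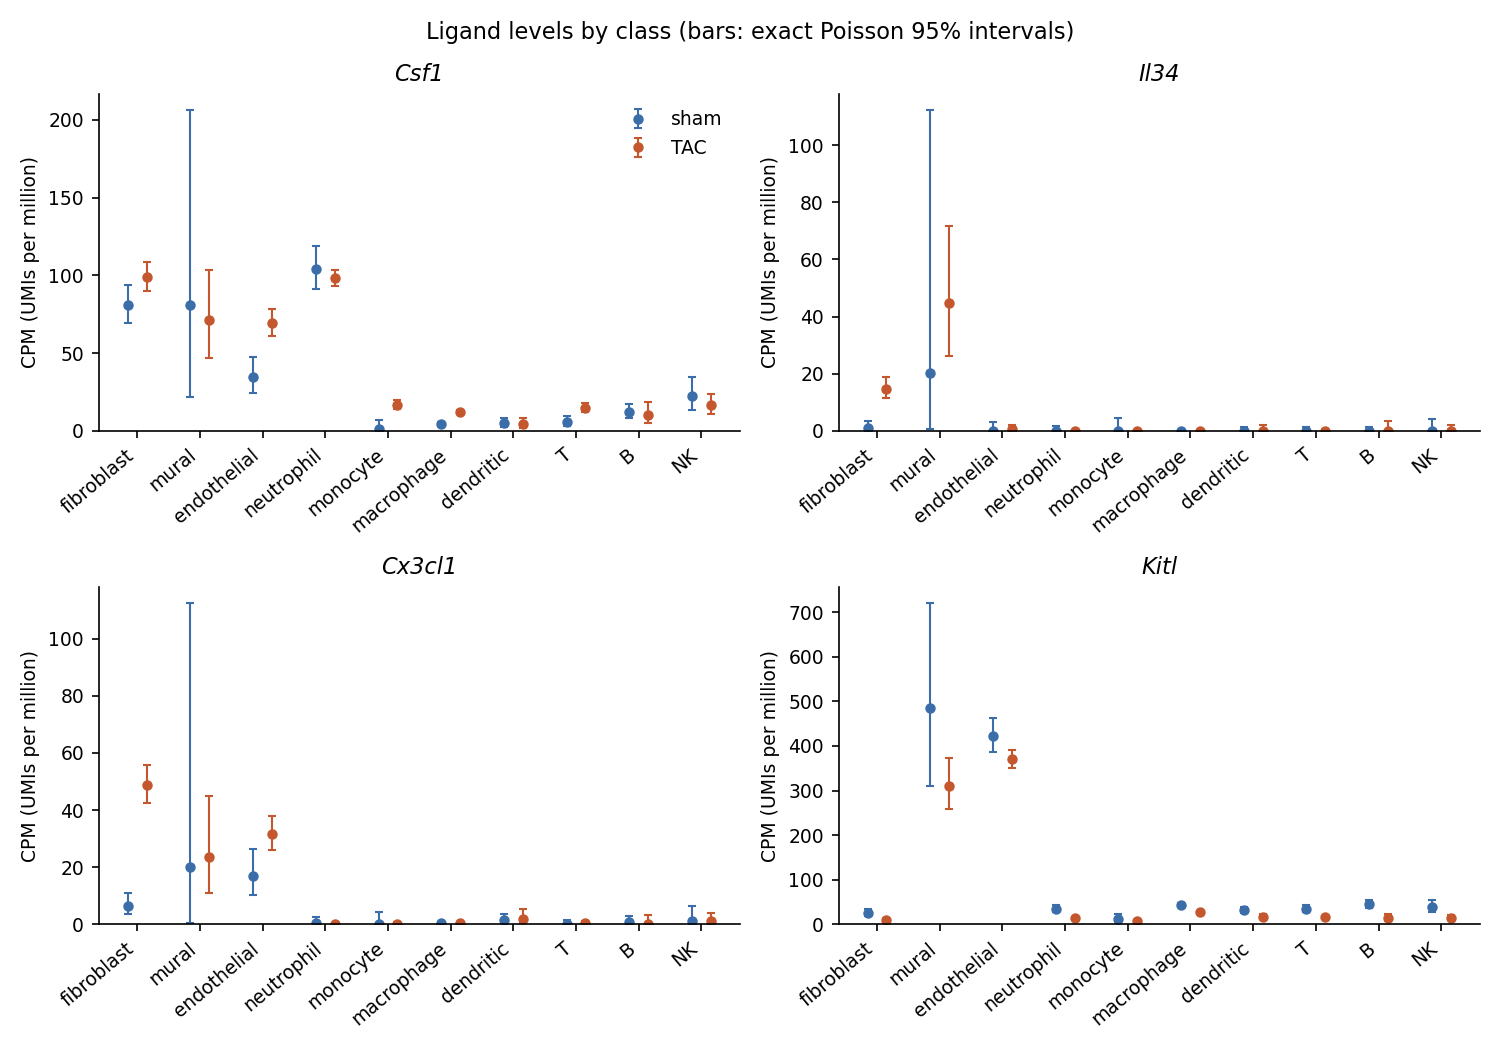
Levels in CPM (vertical axes, linear) of 4 ligand genes by class in the sham and TAC libraries, with exact Poisson 95% intervals as bars. Csf1 is high in fibroblast- and neutrophil-like cells of both libraries, Il34 and Cx3cl1 are seen in stromal classes, and mural-like intervals are wide because the class holds 4 sham and 24 TAC cells.

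**Figure D2:**
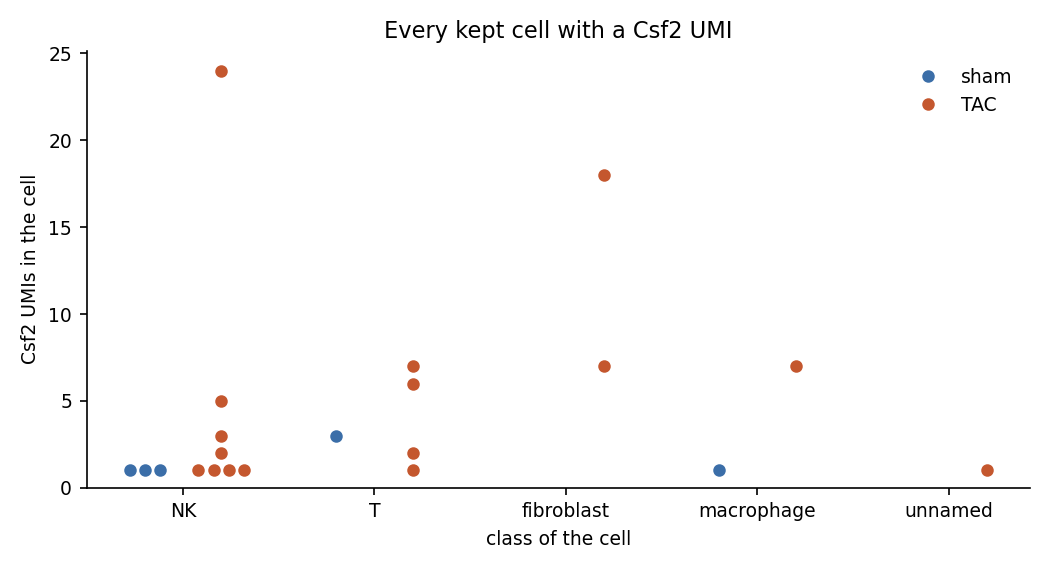
Number of Csf2 UMIs (vertical axis) in each kept cell that had any, by class and library; each point is 1 cell. The highest are an NK-like cell with 24 UMIs and a fibroblast-like cell with 18, both from TAC.

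Csf1r, the receptor of CSF1 and IL-34, was lower in the TAC library in every class with 20 or more UMIs. In macrophage-like cells it was 785 CPM in sham (775 to 796) and 418 CPM in TAC (411 to 426), a ratio of 0.533 (0.521 to 0.545). At 1000 UMIs per cell, a Csf1r UMI was seen in 53.6% (51.7 to 55.5) of macrophage-like cells from sham and 35.0% (32.8 to 37.3) of those from TAC, against 98.2% and 95.7% without thinning. Fibroblast-like cells, which should lack the gene, had it in 4.27% and 2.83% of thinned cells, at median depths of 8925 and 15140 UMIs against 8607 and 14435 in macrophage-like cells. Mitochondrial UMIs made up a median of 8.27% of a sham and 4.63% of a TAC macrophage-like cell. Among cells with at most 5% mitochondrial UMIs the log2 ratio was -0.44, against -0.91 over all kept macrophage-like cells. The macrophage marker list differed less, with 19 of 20 found in at least 50% of cells in both libraries and a sum of 48047 and 41864 CPM.

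The macrophage-like cells of the 2 libraries lay in different clusters. Clusters 0, 3 and 4 held 92.5% of those from sham and 260 of the 1731 from TAC, and clusters 1, 7 and 17 held 7.51% and 85.0%. Cluster 0 was led by Ccl24, Pla2g2d and the heat-shock genes Hspa1a and Hspa1b, cluster 3 by Retnla, Vsig4 and Ltc4s, cluster 4 by heat-shock genes and Myl2, cluster 7 by cell-cycle genes such as Top2a and Mki67, cluster 1 by Saa3 and Cxcl13, and cluster 17 by Ccl8 and Gbp2b. A further cluster, 18, was rich in C1q (medians of 73.2 in sham and 178 in TAC) and led by Slamf7, Cd72 and Tnf. It had 65% of the macrophage list detected. It was left unnamed because its leading genes held 1 marker of mature dendritic cells and no macrophage marker. It held 50 sham and 997 TAC cells, 1.2% and 17.8% of kept cells.

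Within each of these 7 clusters, Csf1r was lower in TAC. The level was highest in cluster 3, with 915 CPM from sham and 706 from TAC cells, a ratio of 0.771. Cluster 0 had 826 and 631 CPM, and cluster 4 had 735 and 529 CPM. The dividing cells of cluster 7 stood lower, at 505 and 316 CPM, with a ratio of 0.625. Cluster 17, with most TAC cells, had 635 CPM over 25 sham cells and 444 CPM over 992 TAC cells, and cluster 18 had 382 and 292 CPM. The ratios ran from 0.625 to 0.771, nearer to 1 than the 0.533 of the whole class, and the counting intervals of all 7 lay under 1. The mean of the log2 ratios of the 6 named clusters was -0.51. The 2 other unnamed clusters, 16 and 20, with C1q medians under 2, had 218 and 332 CPM, and 186 and 201.5 CPM, in sham and TAC.

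In the other classes most Csf1r lay in barcodes that also held C1q. In neutrophil-like cells it was 731 CPM in sham and 233 CPM in TAC, a ratio of 0.319 (0.3 to 0.339), where C1q medians were 132 and 11.4. Over barcodes with little C1q the neutrophil-like level was 56.2 CPM (4 UMIs) and 27.1 CPM (111 UMIs). T-like cells had 592 and 236 CPM although their C1q medians were alike, 111 and 114, and B-like cells had 650 and 266 CPM at 128 and 143. With little C1q, T-like cells had 32.3 and 38.1 CPM, from 2 and 37 UMIs. Fibroblast-like cells had 87.7 and 31.0 CPM, and 9.14 and 7.25 CPM with little C1q, a ratio of 0.793 (0.407 to 1.6). Endothelial-like cells had 216 and 85.6 CPM. With little C1q they had 8.08 and 23.6 CPM, from 5 and 65 UMIs, a ratio of 2.92 (1.19 to 9.29), in the opposite direction. The 2 highest of these TAC cells held 13 and 7 UMIs. Dendritic-like cells had 355 and 138 CPM, a ratio of 0.388 (0.336 to 0.448). With little C1q they had 97.5 and 20.2 CPM, a ratio of 0.207 (0.0945 to 0.407), whose interval lay under 1. These values came from 61 UMIs in 28 of 47 sham cells and 10 UMIs in 4 of 27 TAC cells. In sham, the order was macrophage-, neutrophil-, B-, T-, NK- and monocyte-like cells. The intervals of B-, T- and NK-like cells overlapped one another, and so did those of NK- and monocyte-like cells. The part of macrophage RNA in these values was not tested beyond the barcodes with little C1q.

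Monocyte-like cells carried Csf1r with less C1q, at medians of 31.9 and 7.39 per 10000. They had 506 CPM in sham (459 to 557) and 283 CPM in TAC (272 to 295), a ratio of 0.56 (0.504 to 0.623). Over barcodes with little C1q the values were 256 and 213 CPM, a ratio of 0.831 whose interval, 0.647 to 1.08, includes 1. In the finer clustering, the classical monocytes had 400 and 234 CPM, and the non-classical ones 741 and 424 CPM. Non-classical monocytes thus had the higher level in both libraries.

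Cx3cr1, the fractalkine receptor, differed between the libraries in opposite directions in macrophages and monocytes. Macrophage-like cells had 108 CPM in sham (104 to 112) and 132 CPM in TAC (128 to 136), a ratio of 1.23 (1.17 to 1.29), which is under the 1.5-fold limit. Monocyte-like cells had 153 CPM in sham (128 to 183) and 56.7 CPM in TAC (51.6 to 62.2), a ratio of 0.37 (0.303 to 0.454). With little C1q the monocyte values were 102 and 36.6 CPM, a ratio of 0.36 (0.235 to 0.569). Both monocyte types were lower in TAC, classical ones at 133 and 43.2 CPM and non-classical ones at 195 and 94.3 CPM. There were 54 classical and 18 non-classical cells in sham, and 254 and 133 in TAC.

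Cluster by cluster, Cx3cr1 was higher in TAC in 6 of the 7 macrophage-rich clusters. The widest difference with ample counts was in cluster 0, with 74.0 CPM from sham and 155 from TAC cells, a ratio of 2.09 (1.71 to 2.55). Cluster 4 had the highest level, 186 and 282 CPM, a ratio of 1.51 (1.34 to 1.71). Cluster 7 had 122 and 170 CPM, and cluster 17 had 46.8 CPM from 12 sham UMIs and 105 CPM from 1530 TAC UMIs. Cluster 18 had 140 and 137 CPM. Cluster 4, not cluster 3 with its higher Csf1r, was the Cx3cr1-rich one in both libraries.

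The 2 receptors were also counted together in single macrophage-like cells. At 1000 UMIs per cell, those with only a Csf1r UMI made up 48.2% (46.3 to 50.1) in sham and 30.2% (28.0 to 32.4) in TAC. Those with only a Cx3cr1 UMI were 4.49% (3.75 to 5.33) and 6.47% (5.36 to 7.74). Both genes were seen in 5.39% and 4.86%, and neither in 41.9% and 58.5%. Thinned cells show few of their molecules, which lowers the share with both genes and raises the share with neither, and can move the shares with 1 gene either way.

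In T-like cells Cx3cr1 was 92.9 CPM in sham and 140 CPM in TAC, a ratio of 1.503 (1.3 to 1.74). The finer clustering separated T-like cells led by Tcf7, Lef1 and Il7r (143 sham and 81 TAC cells) from those led by Gzmb, Cd8b1 and Ccl5 (8 and 215 cells). The ratio was 1.06 (0.853 to 1.3) in the first and 1.18 (0.74 to 2.0) in the second, and both intervals include 1. NK-like cells had 124 and 143 CPM. With little C1q, 36 TAC NK-like cells still had 148 CPM of Cx3cr1 and 8.8 CPM of Csf1r, and 75 TAC T-like cells had 87.5 and 38.1 CPM. Endothelial-like cells had 40.9 and 24.8 CPM, and over barcodes with little C1q 1 and 25 UMIs, a ratio of 5.61 (0.919 to 231) in the opposite direction. Neutrophil-like cells had 128 and 65.4 CPM, and 2.44 CPM in the 559 TAC cells with little C1q.

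Over all barcodes, the GM-CSF receptor alpha chain differed little between the libraries, and the beta chain differed more between clusters. Csf2ra, the ligand-binding alpha chain, was 145 CPM in sham and 173 CPM in TAC macrophage-like cells, a ratio of 1.19 (1.14 to 1.24), and its ratios in the 7 macrophage-rich clusters ran from 0.928 to 1.19. Its level was highest in the dendritic-like cluster 2, at 266 CPM (248 to 285) and 253 CPM (230 to 279), followed by monocyte-like cells at 192 and 215 CPM. With little C1q the dendritic-like values were 277 and 192 CPM, a ratio of 0.693 (0.534 to 0.895), whose interval lay under 1. Neutrophil-like cells had 165 and 179 CPM, with 180 CPM in TAC cells with little C1q, so Csf2ra stayed at that level in neutrophil-like cells nearly free of C1q. Fibroblast-like cells were at 31.1 and 27.7 CPM.

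Csf2rb, the signalling beta chain, was most abundant outside the macrophages. Monocyte-like cells had 122 and 138 CPM, dendritic-like cells 104 and 146 CPM (ratio 1.41, 1.18 to 1.67) and neutrophil-like cells 94.1 and 116 CPM (ratio 1.24, 1.07 to 1.44). Macrophage-like cells had 37.0 CPM in sham (34.7 to 39.3) and 32.7 CPM in TAC (30.7 to 34.9), a ratio of 0.886 (0.809 to 0.969). Its log2 value was -0.18, and other settings put it on either side of 0: 0.11 with cluster 18 added and 0.27 at the finer clustering. In the 7 macrophage-rich clusters its ratios ran from 0.4 to 1.58, with 6 lower in TAC, 3 of them past 1.5-fold and 2 with an interval under 1. Over barcodes with little C1q, endothelial-like cells had 1 and 57 UMIs (ratio 12.8, 2.21 to 514) and fibroblast-like cells 1 and 19 (ratio 8.37, 1.33 to 348). The 2 highest of these endothelial-like TAC cells held 10 and 6 UMIs. A limit on C1q does not bear on neutrophil or monocyte RNA, whose part in these values was not tested. Cluster 6, the neutrophils with little C1q, had the highest TAC level at 213 CPM, and cluster 18 had 136 CPM over 50 sham cells and 60.8 CPM over 997 TAC cells, a ratio of 0.445 (0.355 to 0.564). At 1000 UMIs per cell, 7.73% (4.29 to 12.6) of sham and 13.5% (11.6 to 15.6) of TAC neutrophil-like cells had a Csf2rb UMI, against 3.09% and 3.12% of macrophage-like and 0 of 211 (up to 1.42% by the same rule) and 0.405% of fibroblast-like cells. Csf2rb lies beside its close copy Csf2rb2 on chromosome 15, and of the 50-base windows in its longest transcript, 18.4% also occur in Csf2rb2, though none within the last 500 bases. Reads could be split between them, so both are uncertain. Csf2rb2 was 13.8 and 9.04 CPM in macrophage-like cells.

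Flt3 was a gene of the dendritic-like cluster 2. It had 63 UMIs in 34 of 188 sham cells (20.5 CPM, 15.8 to 26.2) and 59 UMIs in 28 of 73 TAC cells (35.3 CPM, 26.8 to 45.5), a ratio of 1.72 (1.19 to 2.49). With little C1q the ratio was 1.41 (0.795 to 2.53), whose interval includes 1. Markers of another dendritic type, conventional dendritic cell 1, differed in this cluster too: of 10 listed, 2 in sham and 5 in TAC were found in at least 50% of cells, and they summed to 620 and 1686 CPM, while the 10 markers of conventional dendritic cell 2 summed to 2109 and 1822 CPM. Their part in the Flt3 values was not tested. Macrophage-like cells had 20 and 16 UMIs, 0.736 and 0.56 CPM, and of these 11 and 16 were in the dividing cluster 7. B-like cells had 6 UMIs and 1 UMI. Over all kept cells Flt3 was 1.91 and 1.03 CPM, while cluster 2 held 188 sham and 73 TAC cells.

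**Figure D3:**
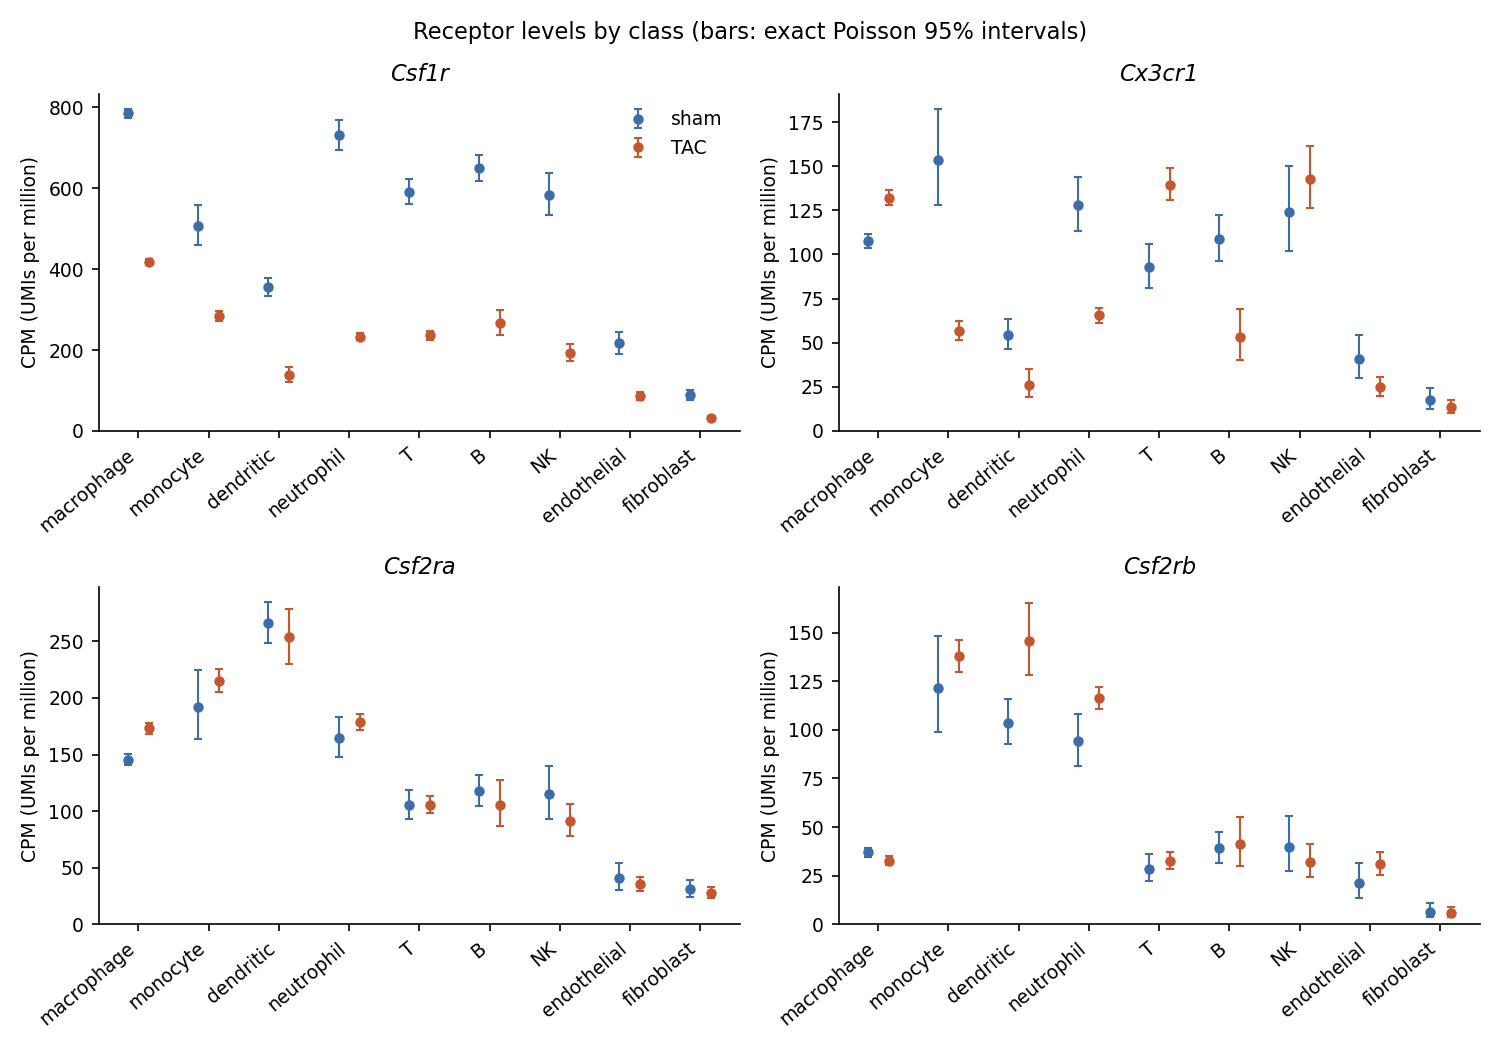
Levels in CPM (vertical axes, linear) of 4 receptor genes by class in the sham and TAC libraries, with exact Poisson 95% intervals as bars. Csf1r is lower in TAC in every class drawn, Cx3cr1 is lower in monocyte-like and higher in macrophage-like cells of TAC, and Csf2ra and Csf2rb are close in the 2 libraries.

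**Figure D4:**
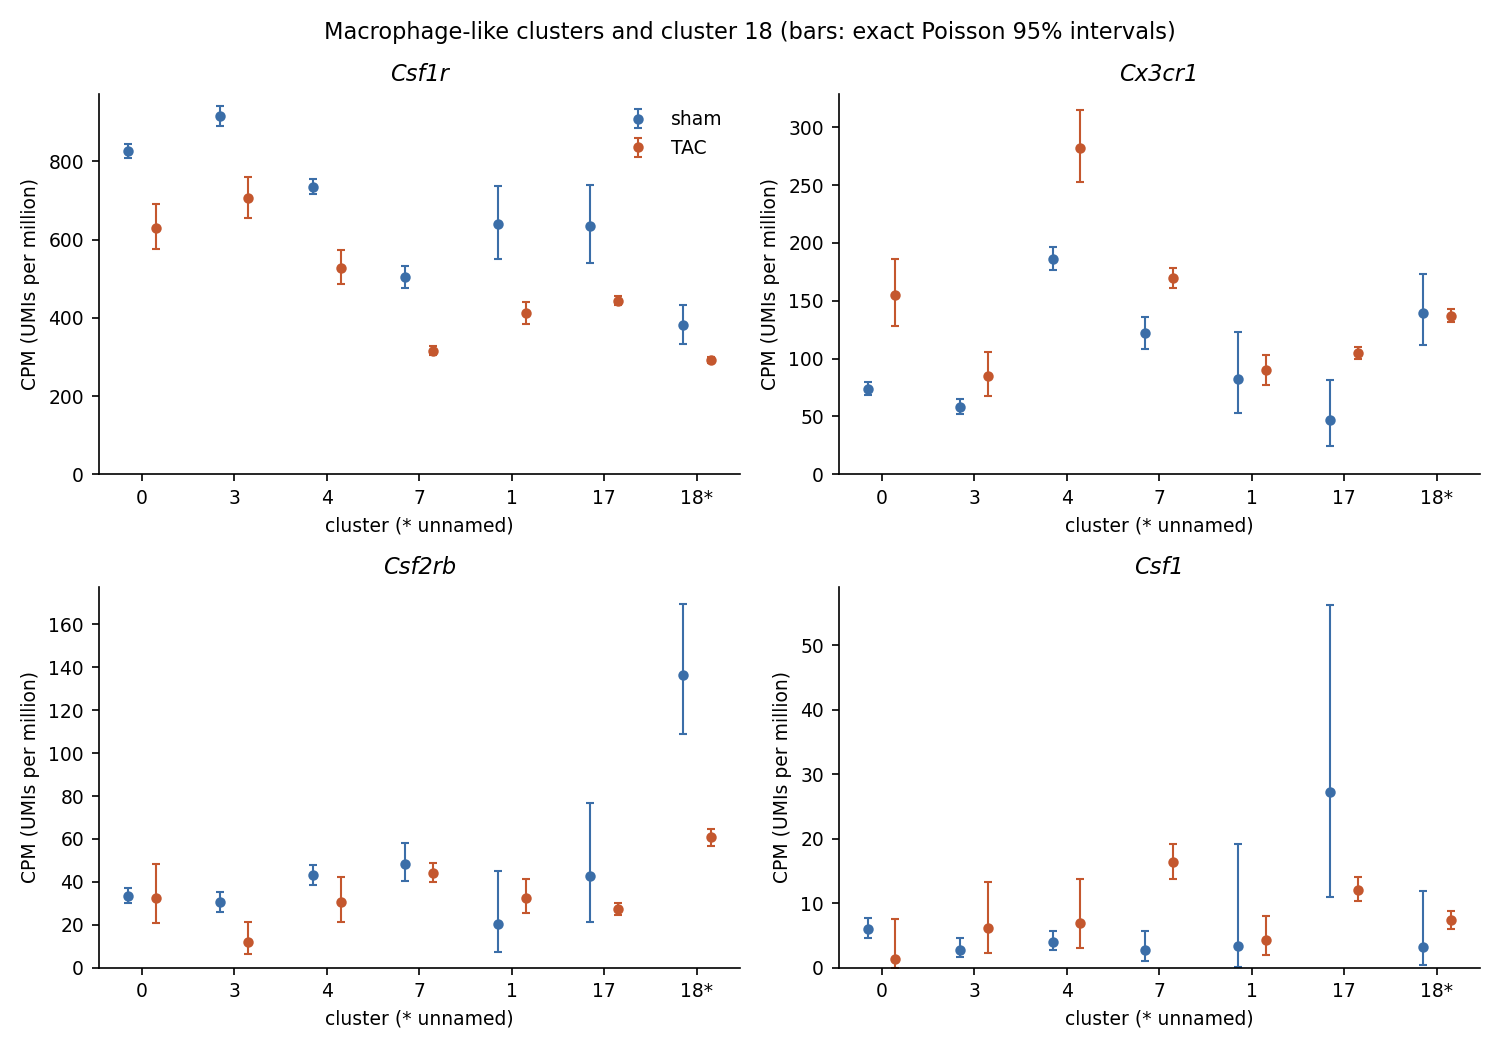
Levels in CPM (vertical axes, linear) of Csf1r, Cx3cr1, Csf2rb and Csf1 in the 6 macrophage-like clusters and in unnamed cluster 18 (starred), with exact Poisson 95% intervals as bars. Csf1r is lower in TAC in each cluster and Cx3cr1 is higher in 6 of 7.

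Counts of members past 1.5-fold are given beside the share of all tested genes past the same limit. In macrophage-like cells 6 members had at least 20 UMIs over both libraries, and 1, Csf1, was past 1.5-fold higher in TAC, where 15.4% of 12501 genes were. One, Csf1r, was past 1.5-fold lower, where 19.5% of genes were. In neutrophil-like cells 0 of 5 members were higher (11.3% of genes) and 2, Csf1r and Cx3cr1, were lower (36.7%). In endothelial-like cells 1 of 5, Csf1, was higher (15.6%) and 2, Csf1r and Cx3cr1, were lower (15.3%). In fibroblast-like cells 2 of 7, Il34 and Csf2, were higher (9.69%) and 1, Csf1r, was lower (19.2%). In T-like cells 2 of 5, Csf1 and Cx3cr1, were higher (19.8%) and 1, Csf1r, was lower (18.8%).

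**Figure D5:**
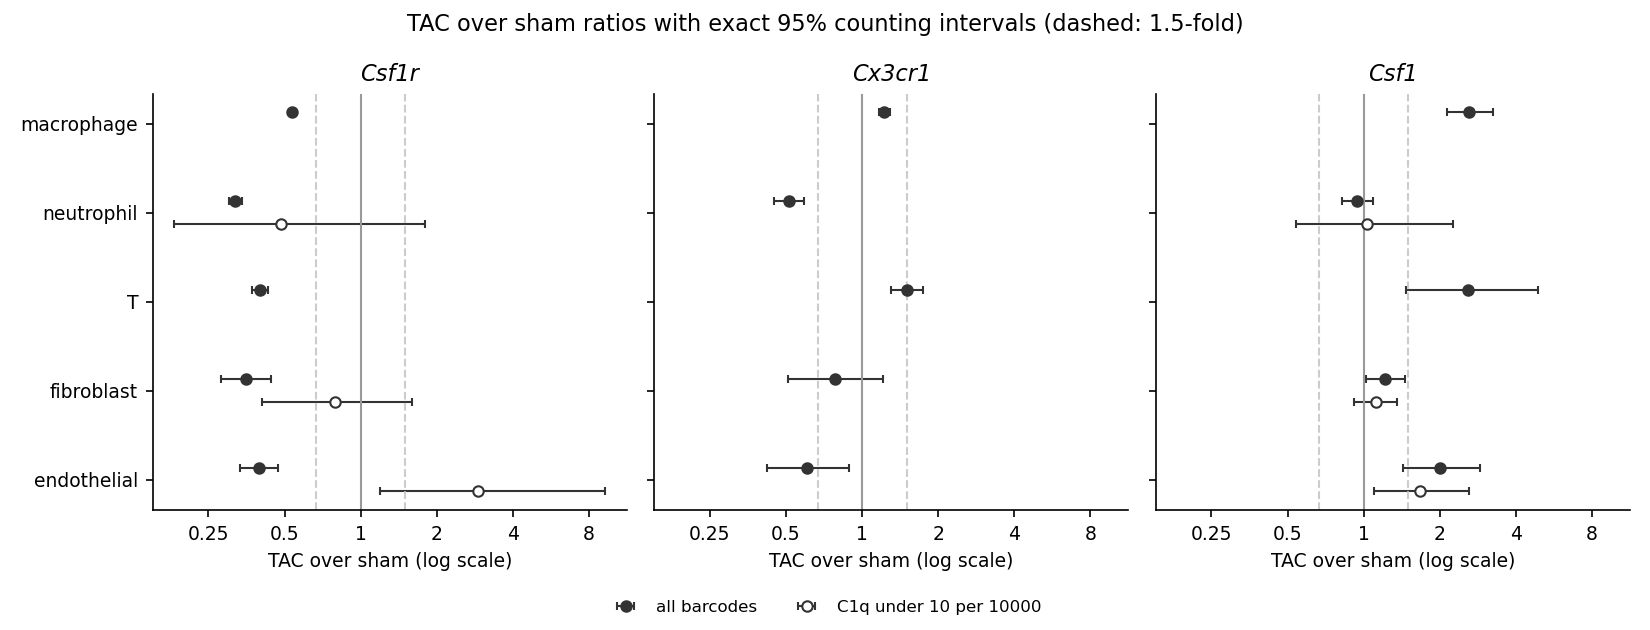
TAC over sham ratios (horizontal axes, log scale) of Csf1r, Cx3cr1 and Csf1 in the 5 compared classes with exact 95% counting intervals. Filled points use all barcodes, open points those with C1q under 10 per 10000 UMIs where each library had at least 4 UMIs and both together at least 20, and none for macrophage-like cells. The filled Csf1r points all lie under 1, whereas the open endothelial point, from 5 sham and 65 TAC UMIs, lies at 2.92.

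Among related ligands, Cx3cl1 and Kitl were most abundant in stromal classes, while Flt3l and Csf3 were not limited to them. Cx3cl1, which encodes fractalkine, was 6.6 CPM in sham (14 UMIs in 12 cells) and 48.8 CPM in TAC fibroblast-like cells (211 UMIs in 99 cells), a ratio of 7.39 (4.31 to 13.8). In endothelial-like cells it was 16.9 and 31.6 CPM, a ratio of 1.87 (1.15 to 3.22). Fibroblast-like cells of TAC with a UMI of Postn or Cthrc1 had 58.6 CPM of Cx3cl1 against 20.5 CPM in those without. Kitl, the ligand of the KIT receptor, was highest in mural-like (484 and 311 CPM) and endothelial-like cells (423 and 370 CPM), and 44.5 and 28.8 CPM in macrophage-like cells. Flt3l, the ligand of FLT3, was 14.1 and 17.1 CPM in fibroblast-like, 11.7 and 18.2 CPM in T-like, 9.38 and 16.0 CPM in NK-like and 4.01 and 6.09 CPM in macrophage-like cells, the last a ratio of 1.52 (1.19 to 1.95). Csf3, which encodes G-CSF, had 8 UMIs in sham and 42 in TAC over all kept cells, with 0 in fibroblast-like cells and 12 in macrophage-like and 9 in neutrophil-like cells of TAC, and Il3 and Il5 had none.

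Among related receptors, Csf3r, the G-CSF receptor, was 330 CPM in sham and 386 CPM in TAC neutrophil-like cells and reached 943 CPM in TAC cells of cluster 6. Kit was found with Flt3 in the dendritic-like cluster 2, at 11.4 and 30.5 CPM, a ratio of 2.68 (1.71 to 4.24), in the cluster whose conventional dendritic cell 1 markers were higher in TAC. In endothelial-like cells Kit was 25.8 and 8.45 CPM. Il3ra, the IL-3 receptor alpha chain, was 40.2 and 44.8 CPM in macrophage-like cells and 19.8 and 37.4 CPM in fibroblast-like cells. Sdc1, a syndecan that binds IL-34, was 9.9 and 17.6 CPM in fibroblast-like cells, and Ptprz1, another IL-34 receptor, had 12 UMIs in all, every one from TAC. Il5ra had 3 and 14 UMIs.

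Genes around the receptors, in 3 lists, were counted in macrophage-like cells, where the median log2 ratio of all 12501 genes was -0.04 and 15.4% of them were past 1.5-fold higher and 19.5% lower. Of 18 CSF1R adaptors and signal relays, 4 were past 1.5-fold higher and 4 lower in TAC, with a median of -0.02. The phosphatase Ptpn6 was among the higher (128 and 248 CPM, ratio 1.94), and the kinase Src (1.66 and 0.63 CPM, ratio 0.381) and Socs7 (12.8 and 7.43 CPM, ratio 0.582) had the lowest ratios. Of 14 GM-CSF receptor kinases, STAT5 genes and targets, 6 were higher and 1 was lower, with a median of 0.21. Ccl17, a chemokine, was 0.846 and 5.5 CPM (ratio 6.5, 4.18 to 10.6), and Socs1, an inhibitor of cytokine signalling that interferons also induce, was 7.51 and 40.5 CPM (ratio 5.39, 4.64 to 6.29). Irf4 was 11.3 and 5.67 CPM and Stat5b 23.9 and 18.7 CPM. Of 8 myeloid transcription factors known to bind at the Csf1r and Flt3 genes, 2 were higher and 3 lower, with a median of -0.43. Irf8 (110 and 304 CPM, ratio 2.76) and Spi1, which encodes PU.1 (334 and 516 CPM, ratio 1.55), were higher, and Maf (719 and 341 CPM, ratio 0.474) and Ets2 (170.5 and 103 CPM, ratio 0.601) were lower.

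Related ligands and receptors were counted the same way. In macrophage-like cells, 1 of 3 related ligands with enough UMIs, Flt3l, was past 1.5-fold higher and 1, Kitl, lower, and of 5 related receptors 0 were higher and 2, Kit (1.18 and 0.525 CPM) and Csf2rb2, were lower. In neutrophil-like cells, where the median of all 10682 genes was -0.36 and 11.3% of them were past 1.5-fold higher and 36.7% lower, 0 of 2 related ligands were higher and 1, Kitl (35.2 and 13.3 CPM), lower, and 1 of 4 related receptors, Kit with 1 and 42 UMIs, was higher. The further counts were 3 higher and 5 lower of 17 adaptors and relays, 5 and 2 of 12 GM-CSF receptor genes and targets, and 2 and 4 of 8 transcription factors. Socs1 was there 7.42 and 71.5 CPM.

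Genes with the most similar pattern were sought for the 5 members with at least 200 UMIs, by Pearson's r of log2(CPM + 1) over 18 sums, 9 classes in each library, among 5014 genes. The sums share libraries, depth and the macrophage RNA described above, so r is a description. Among the genes most like Csf1r were Slc43a2 (0.987) and F13a1 (0.983), of which F13a1 is also a listed macrophage marker. Cx3cr1 was most like Ms4a7 (0.897), Tmem37 (0.883) and Rap1b (0.883), Csf2ra like Irf5 (0.954), Cotl1 (0.95) and Gpx1 (0.949), and Csf2rb like Cyb5r4 (0.952), Pmaip1 (0.933) and Skap2 (0.932). Csf1 was most like Rnf11 (0.87), Dhrs7 (0.858) and Qsox1 (0.835). Csf1 thus had the loosest match of the 5.

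The members lie on separate chromosomes of GRCm38, by GENCODE vM21: Csf1 (ENSMUSG00000014599) at chr3:107741048-107760469, Il34 (ENSMUSG00000031750) at chr8:110741829-110805924, Csf1r (ENSMUSG00000024621) at chr18:61100598-61132149, Csf2 (ENSMUSG00000018916) at chr11:54247271-54249667, Csf2ra (ENSMUSG00000059326) at chr19:61223957-61228429, Csf2rb (ENSMUSG00000071713) at chr15:78325752-78353847, Cx3cr1 (ENSMUSG00000052336) at chr9:119901616-120069879 and Flt3 (ENSMUSG00000042817) at chr5:147330741-147400489. The annotated Cx3cr1 locus spans 9 other counted genes, 3 of them on its own strand (Gorasp1, Csrnp1 and Xirp1), and Csf1r, Csf2, Flt3 and Il34 overlap genes on the other strand. Details of strand in the counting are not given in the sources used here, and without strand such reads cannot be told apart.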

How the data were processed

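RNA of CD45-sorted heart cells was counted in 1 sham and 1 TAC library. The authors deposited gene-by-barcode UMI counts made with Cell Ranger 3.0 on mm10, per the submitters' processing notes; chemistry and barcode calling are not given in the sources used here. They held 11941 sham and 7975 TAC barcodes with 87532984 and 97983083 UMIs. A barcode was kept as a cell if it had 300 or more genes and no more than 10% of its UMIs from mitochondrial genes. Cells were clustered with scanpy 1.11.5 and leidenalg 0.10.2 (2000 variable genes without the members and related genes, 30 components, 15 neighbours, resolution 1) and named from marker lists. The naming limits (60% of a list detected, and the check of 10 leading genes) were set after the clusters were seen. Scrublet called 0 and 1 doublets, so it did not work, and doublets remain. With 1 library per group no test was possible. Sums of UMIs have exact Poisson, shares exact Clopper-Pearson (a share of 0 has 3 counts of the total as its upper limit) and ratios exact conditional binomial 95% intervals. Past 1.5-fold means a ratio beyond that limit, with 0.5 UMI added to each count and at least 20 UMIs over both libraries. Log2 ratios of summed UMIs carry the same 0.5 UMI. Code was tested on simulated data. Members and lists were chosen with earlier results of these data known. Named list genes are up to 2 highest and 2 lowest ratios in macrophage-like cells per list. Sequences are from RefSeq (GRCm38.p6), where 5 of 8 members had a promoter that could be searched. Some genes that these rules would name are not reported here.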

Additional observations from a re-analysis of the deposited data

Results flagged for a closer look

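Cx3cr1 differed in direction between T-like and monocyte-like cells. On the log2 scale its TAC over sham ratio was 0.59 in T-like cells (92.9 and 139.6 CPM) and -1.44 in monocyte-like cells (153 and 56.7 CPM). In other lymphoid classes the ratio was 0.491 (0.363 to 0.656) in B-like cells (108.7 and 53.4 CPM) and 1.15 (0.915 to 1.46), an interval that includes 1, in NK-like cells. The gap between the T-like and monocyte-like ratios was not tested, since each group was 1 library. Within the 2 finer T-like clusters the ratios were 1.06 (0.853 to 1.3) and 1.18 (0.74 to 2.0), with intervals that include 1, and both monocyte types were lower in TAC.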

How the results depend on the processing

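Over 28 results, 313 alternative values were computed; of those not printed below, 40 for the leading results and 165 for the other genes stayed within the counting interval of the reported value or the same count, and 73 did not. All values below are log2 ratios of TAC over sham. Those given for 0 UMIs exist only through the 0.5 UMI added to each count. With at most 5% mitochondrial UMIs, few sham cells remained: macrophage-like Csf1 was 1.82 (1 sham UMI), Csf1r -0.44 (248 sham UMIs) and Cx3cr1 0.12, neutrophil-like Csf2rb 1.32 (0 sham UMIs), fibroblast-like Csf1 0.93, and endothelial-like Csf1r 3.06 and Cx3cr1 1.35 (0 sham UMIs each), both in the opposite direction. With at most 25%, macrophage-like Csf1r was -0.97. With at least 500 genes, macrophage-like Csf1 was 0.11, Csf1r -0.95 and Csf2rb -0.34. At resolution 2, Csf1r was -1.06 and Csf2rb 0.27. With members kept among the variable genes, these were -1.05 and 0.13. Thinned to 1000 UMIs, Csf1r was -0.81 and Csf2rb -0.021 in macrophage-like cells, Csf2rb 0.79 in neutrophil-like cells, and in fibroblast-like cells Csf1 was -0.36 and Csf2, with no UMI left, -0.23. Without mitochondrial, ribosomal protein and haemoglobin genes in the total, macrophage-like Csf1r was -0.98 and Cx3cr1 0.22. Scaled by the median ratio, neutrophil-like Csf2rb was 0.61. As means of each cell's CPM, macrophage-like Csf1r was -0.86 and Csf2rb -0.31, and neutrophil-like Csf2rb 0.67. Without C1q-rich barcodes the last was 0.52. The causes of these shifts were not tested. A further 3 alternatives were chosen after seeing the data. With C1q under 10 per 10000, endothelial-like Csf1r was 1.42 and Cx3cr1 1.93. With the unnamed C1q-rich cluster added, macrophage-like Csf1r was -1.05 and Csf2rb 0.11. As the mean over macrophage-like clusters, Csf1 was 0.24, Csf1r -0.51, Csf2rb -0.34 and Cx3cr1 0.65. Macrophage-like Csf1r was below 0 under its 12 alternatives, from -1.06 to -0.44, and Csf1 above 0, from 0.11 to 1.82. No paired analysis was possible because each group is 1 library, which also left no replicate to leave out.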
